A study of Glycine max with 8 samples.

Results

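The NAC and WRKY genes of soybean that carry a family name and a number in the RefSeq annotation of Glycine_max_v4.0 were examined for binding by the SNAP transcription factors (TFs). A gene was taken when it is protein-coding, lies on chromosomes 1 to 20, and has a symbol or synonym made of NAC, GmNAC, WRKY or GmWRKY and a number. This rule used no measured value. It gave 110 genes of the 46816 protein-coding genes on these chromosomes, 48 of them NAC and 62 WRKY, and no gene matched both families. The remaining 46706 protein-coding genes are called other genes below. The rule takes named genes only, so the list does not hold every NAC or WRKY gene of soybean.

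NAC proteins are plant TFs named after NAM, ATAF and CUC2, and bind DNA through an N-terminal NAC domain. Members of the family govern organ boundaries, cell wall formation, stress responses and senescence, and the SNAP TFs are NAC proteins themselves. WRKY proteins are named after the WRKYGQK stretch of their DNA-binding domain, recognise the W-box, and act mainly in defence, stress and leaf senescence. Genes of the WRKY family are often bound and controlled by WRKY proteins themselves.

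Binding was measured by ChIP-seq with a FLAG antibody in soybean hairy roots bearing nodules, with 2 biological replicates for each of FLAG-SNAP1, FLAG-SNAP2, FLAG-SNAP3 and FLAG-SNAP4, 8 libraries in all. Each TF was expressed as a FLAG-tagged coding sequence under the soybean pM4 promoter, introduced into roots with Agrobacterium K599. The labels list the genotype as a mutant of each SNAP gene, whereas the methods describe the tagged constructs and name no mutant host, so whether the plant's own factor was present is not known, and libraries are named here by the tagged TF. No library without a tagged TF and no input were analysed here, and the 8 libraries make no comparison of nitrogen levels. In replicates 1 and 2, MACS2 called 8426 and 9052 FLAG-SNAP1 peaks, 7937 and 9332 FLAG-SNAP2 peaks, 6590 and 3628 FLAG-SNAP3 peaks, and 5888 and 6856 FLAG-SNAP4 peaks. FLAG-SNAP3 replicate 2 had the fewest, and the read depth behind each library is not known from the peak lists.

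NAC and WRKY genes had a peak more often than other genes in each of the 8 libraries. A gene was counted when the midpoint of a peak fell inside it or within 2 kb of either end, and the annotation used gives no strand, so both ends count alike. For FLAG-SNAP1, 37.5% and 39.6% of NAC genes had a peak in replicates 1 and 2, and 40.3% and 46.8% of WRKY genes, against 12.6% and 13.6% of other genes. For FLAG-SNAP2 the shares were 35.4% in both replicates for NAC genes and 38.7% and 46.8% for WRKY genes, against 11.8% and 13.9% of other genes. For each of the 4 TFs, the shares of both families did not overlap with those of other genes in its libraries. For FLAG-SNAP3, 27.1% and 12.5% of NAC genes and 40.3% and 27.4% of WRKY genes had a peak, against 10.3% and 5.88% of other genes. For FLAG-SNAP4, 31.2% and 29.2% of NAC genes and 41.9% and 40.3% of WRKY genes had a peak, against 8.78% and 10.1% of other genes. In FLAG-SNAP3 replicate 2, the library with the fewest peaks, the share was the lowest of the 8 for NAC, WRKY and other genes alike. In every library the share of WRKY genes was above that of NAC genes.

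**Figure D1:**
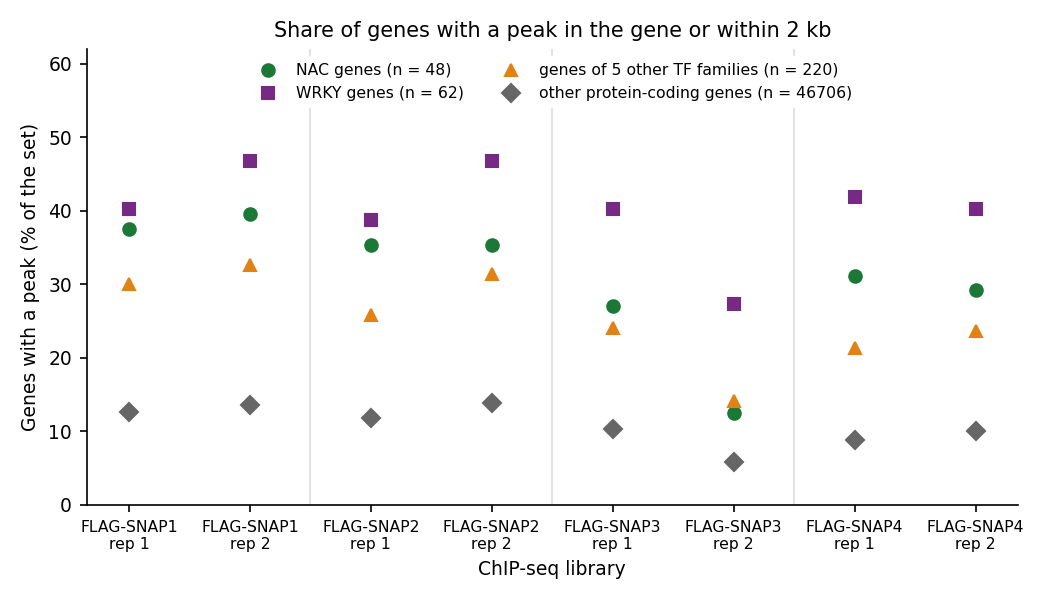
Share of genes with a peak in the gene or within 2 kb (y axis, percent of each gene set) in each of the 8 ChIP-seq libraries (x axis), each point being 1 gene set in 1 library. WRKY genes lay between 27.4% and 46.8% and NAC genes between 12.5% and 39.6%, above the other protein-coding genes at 5.88% to 13.9% in each library, and the genes of 5 other TF families lay above the other genes too.

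A target of a TF was defined as a gene with a peak in both of its replicates. FLAG-SNAP1 had 17 NAC targets (35.4%) and 23 WRKY targets (37.1%), against 8.99% of other genes. FLAG-SNAP2 had 14 NAC (29.2%) and 22 WRKY targets (35.5%), against 7.87% of other genes. FLAG-SNAP3 had 5 NAC (10.4%) and 14 WRKY targets (22.6%), against 4.60% of other genes, and FLAG-SNAP4 had 12 NAC (25.0%) and 21 WRKY targets (33.9%), against 5.52%. The share of NAC genes was thus 3.94, 3.70, 2.27 and 4.53 times that of other genes with FLAG-SNAP1, FLAG-SNAP2, FLAG-SNAP3 and FLAG-SNAP4, and the share of WRKY genes 4.13, 4.51, 4.91 and 6.14 times. Computed in each replicate on its own, the ratio for NAC genes was 2.94 ± 0.0372, 2.78 ± 0.318, 2.38 ± 0.360 and 3.23 ± 0.464 for the 4 TFs in the same order (mean ± SD, n = 2). For WRKY genes it was 3.32 ± 0.179, 3.33 ± 0.0636, 4.30 ± 0.523 and 4.39 ± 0.540. The single-library ratios were thus all above 1 in both families. They were lower than the ratio of targets, which asks for a peak in both replicates, with the exception of NAC genes in FLAG-SNAP3 replicate 1 at 2.64.

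These ratios are descriptions with no test. Genes of a family are not independent replicates, and with 2 libraries for each TF an exact permutation test between 2 TFs cannot give a two-sided p below 0.333. The order of the TFs therefore rests on differences between pairs of libraries. The FLAG-SNAP3 counts depended on which replicate was used: replicate 1 alone had 13 NAC and 25 WRKY genes with a peak, and replicate 2 alone had 6 and 17. Of the members with a FLAG-SNAP3 peak, 19 had it in both replicates and 23 in 1 replicate only, 19 of these in replicate 1. Among other genes, 11.6% had a FLAG-SNAP3 peak in at least 1 replicate but only 4.60% in both. Calls in a single FLAG-SNAP3 replicate were thus not particular to members. For FLAG-SNAP1, FLAG-SNAP2 and FLAG-SNAP4 the members with a peak in both replicates were 40, 36 and 33, and those with a peak in 1 only were 11, 15 and 14. With FLAG-SNAP1, either replicate called 17.2% of other genes and both called 8.99%. With FLAG-SNAP2 it was 17.8% by either and 7.87% by both, and with FLAG-SNAP4 13.3% and 5.52%. No test compared members with other genes here.

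The size of the ratios also depended on the genes and peaks they were set against. Against the 2247 other genes that carry a symbol of their own rather than a locus number, the ratios were 2.47, 2.36, 1.45 and 2.69 for NAC genes and 2.59, 2.87, 3.15 and 3.64 for WRKY genes, for FLAG-SNAP1 to FLAG-SNAP4. A further setting took the same number of peaks from every library, the 3628 with the highest fold enrichment. This kept every peak of FLAG-SNAP3 replicate 2 but only a part of those of each other library, so the TFs were not filtered alike. It gave 1.28, 2.08, 1.23 and 5.81 for NAC genes and 0.494, 0.538, 3.82 and 2.25 for WRKY genes. The WRKY share then lay below that of other genes for FLAG-SNAP1 and FLAG-SNAP2, with 1 WRKY target each (1.61%), against 3.27% and 3.00% of other genes. The NAC values of 1.28 and 1.23 rested on 2 targets each, so these ratios are coarse. When the 3628 peaks with the highest −log10 q-value were taken instead, a choice made after seeing the data, the ratios were 4.86, 5.85, 2.27 and 5.66 for NAC genes and 6.27, 4.98, 6.15 and 6.82 for WRKY genes. The ratios thus depended on whether peaks were ranked by height or by q-value. Ranking by height left few targets for FLAG-SNAP1 and FLAG-SNAP2, but 8 WRKY targets for FLAG-SNAP3 and 8 NAC targets for FLAG-SNAP4.

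Being a target of several SNAP TFs, each measured in its own libraries, was more frequent among members than among other genes. At least 1 TF had 20 NAC genes (41.7%) and 29 WRKY genes (46.8%) as targets, against 13.2% of other genes. All 4 TFs shared 5 NAC genes (10.4%) and 11 WRKY genes (17.7%), 16 members together (14.5%), against 2.23% of other genes. Of the genes that were targets of any TF, 25.0% of NAC and 37.9% of WRKY genes were targets of all 4, against 16.9% of other genes. Targets of a single TF made up 35.0% of NAC, 20.7% of WRKY and 45.3% of other target genes. At the looser criterion of a peak in at least 1 library, 28 NAC (58.3%) and 46 WRKY genes (74.2%) were found, against 29.0% of other genes, which leaves 20 NAC and 16 WRKY genes with no peak at all.

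**Figure D2:**
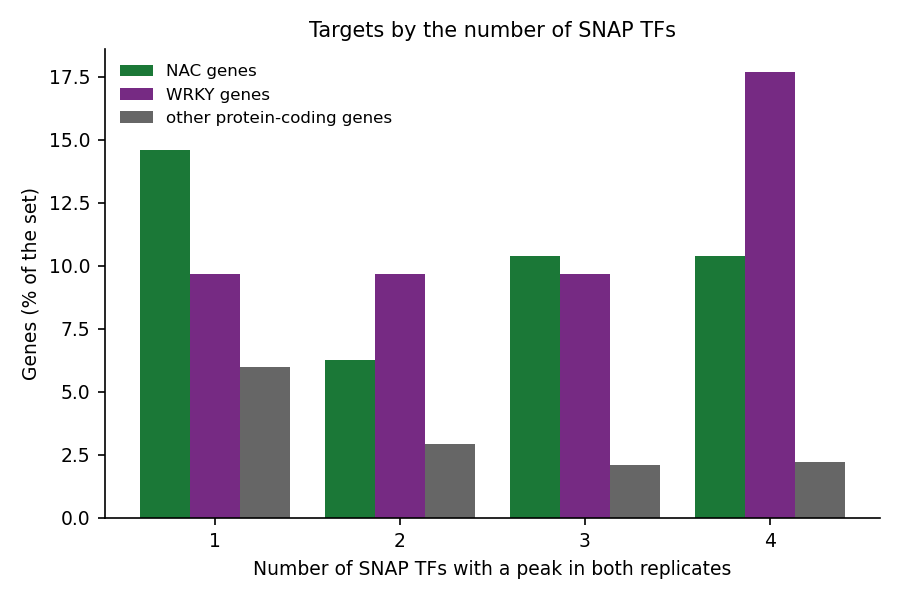
Share of genes (y axis, percent of each set) that were targets of 1, 2, 3 or 4 of the SNAP TFs (x axis), a target having a peak in both replicates of a TF; bars are NAC genes, WRKY genes and other protein-coding genes. The bar for all 4 TFs stands at 10.4% for NAC and 17.7% for WRKY genes, against 2.23% for other genes.

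The 16 members bound by all 4 TFs had a peak in all 8 libraries. The NAC genes were NAC022, NAC19, LOC100170751 (synonym NAC32), NAC018 and NAC2. The WRKY genes were WRKY37, LOC100170685 (synonyms WRKY11 and WRKY15a), WRKY16, WRKY47, WRKY42, WRKY13, WRKY39, WRKY50, WRKY49, WRKY56 and WRKY23. Leaving out a single library gave the same count of 16 members, unless that library was FLAG-SNAP3 replicate 2 or FLAG-SNAP4 replicate 2. The count was 22 (8 NAC and 14 WRKY) without the former and 18 without the latter. Other genes went from 2.23% with all 8 libraries to 2.81% and 2.35% in these cases. They stood at 2.26% to 2.46% when any other library was left out, so a rise was not particular to members.

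The peaks at the 5 NAC genes were of moderate height on average. Their height varied least between libraries at NAC2 and NAC018, and more at NAC022, NAC19 and LOC100170751. Among all peaks of a library, NAC19 stood between percentile 15.1 and 91.5, and NAC2 between 21.2 and 65.4. Heights are the fold enrichment that MACS2 gave at the summit, taken for the strongest peak of a gene in a library, and are listed for replicates 1 and 2 of FLAG-SNAP1, then FLAG-SNAP2, FLAG-SNAP3 and FLAG-SNAP4. NAC022 had 4.05, 4.54, 4.40, 4.04, 6.22, 5.84, 5.05 and 4.54. Its highest values were both FLAG-SNAP3 libraries, in which peaks of all kinds were also higher, with a median fold enrichment of 4.80 and 5.17 against 4.03 to 4.54 in the other 6 libraries. NAC19 had 4.36, 4.60, 5.11, 6.25, 3.90, 5.06, 4.67 and 4.62, and LOC100170751 had 4.62, 4.06, 5.52, 4.18, 4.56, 5.65, 4.51 and 4.89. Replicates of a TF could differ widely here, as with FLAG-SNAP2 at NAC19 (5.11 and 6.25) and at LOC100170751 (5.52 and 4.18). At NAC022, by contrast, replicates lay closer to each other than the FLAG-SNAP3 values did to those of other TFs. NAC018 had 4.21, 4.78, 4.25, 4.17, 4.71, 4.22, 4.04 and 4.81. NAC2 was the most even of the 5, with 4.19, 4.45, 4.04, 4.37, 4.29, 4.32, 4.38 and 4.53, a mean of 4.32 ± 0.155 (SD over 8 libraries). The means of the other 4 were 4.83 ± 0.810 for NAC022, 4.82 ± 0.692 for NAC19, 4.75 ± 0.578 for LOC100170751 and 4.40 ± 0.312 for NAC018.

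Among the 11 WRKY genes, WRKY37 had the highest mean, 4.71 ± 0.784 (SD over 8 libraries), with 4.39, 4.15, 4.04, 4.49, 6.11, 5.79, 4.25 and 4.50 in the same order of libraries. LOC100170685 had 4.96, 4.48, 3.80, 3.99, 5.90, 5.12, 4.32 and 3.91. WRKY16 had 5.39, 4.47, 2.91, 3.83, 6.49, 4.95, 3.33 and 4.62, the widest spread of the 16 genes at 4.50 ± 1.15. At WRKY16 FLAG-SNAP1 replicate 1 lay between the FLAG-SNAP3 libraries. At 7 of the 11 WRKY genes (WRKY37, LOC100170685, WRKY39, WRKY50, WRKY49, WRKY56 and WRKY23) and at 1 of the 5 NAC genes (NAC022) both FLAG-SNAP3 libraries lay above the other 6, as they did at 20.1% of the 1041 other genes with a peak in all 8 libraries. This difference was not tested. WRKY13, known from work in Arabidopsis as a stress-related soybean WRKY, had 3.77, 4.29, 3.87, 2.91, 4.78, 3.54, 4.28 and 3.18. WRKY50 had 3.32, 3.75, 3.41, 3.70, 4.68, 4.20, 3.68 and 3.58, and WRKY56 had 3.46, 3.59, 3.40, 3.32, 4.24, 3.77, 3.72 and 3.59. The peaks of WRKY50 and WRKY56 were thus low in every library, with means of 3.79 ± 0.444 and 3.64 ± 0.288. The remaining means were 4.38 ± 0.568 for WRKY47, 4.32 ± 0.433 for WRKY42, 3.79 ± 0.573 for WRKY39, 3.72 ± 0.519 for WRKY49 and 3.57 ± 0.584 for WRKY23.

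**Figure D3:**
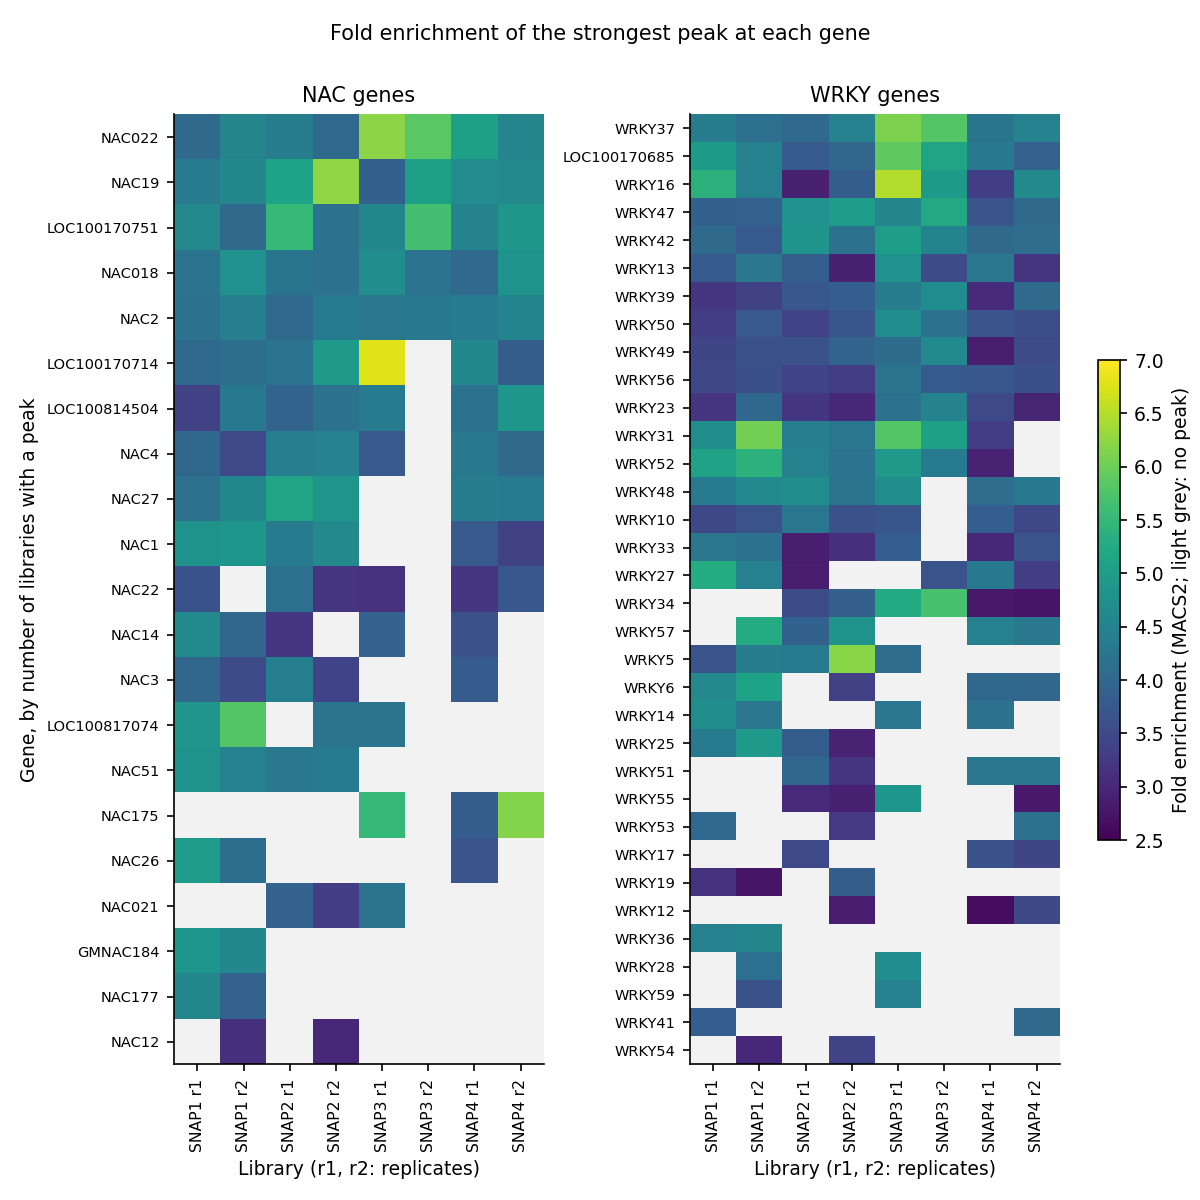
Fold enrichment of the strongest peak (colour, MACS2 value at the summit) of each NAC gene (left) and WRKY gene (right) with a peak in at least 2 libraries, by library (x axis) and gene (y axis, ordered by the number of libraries); light grey means no peak. The 5 NAC and 11 WRKY genes at the top have a peak in all 8 libraries, and the FLAG-SNAP3 replicate 2 column is the emptiest, with 6 NAC and 17 WRKY genes over all members.

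A further 8 members were targets of FLAG-SNAP1, FLAG-SNAP2 and FLAG-SNAP4 but not of FLAG-SNAP3: LOC100170714, LOC100814504, NAC4, NAC27, NAC1, WRKY48, WRKY10 and WRKY33. LOC100170714, whose synonym GmNAC109 is known for promoting lateral roots in Arabidopsis, had 4.03, 4.12, 4.22 and 4.94 in the FLAG-SNAP1 and FLAG-SNAP2 libraries, 6.79 in FLAG-SNAP3 replicate 1, none in FLAG-SNAP3 replicate 2, and 4.59 and 3.82 for FLAG-SNAP4. LOC100814504 (synonym NAC69), NAC4, WRKY48, WRKY10 and WRKY33 likewise had a FLAG-SNAP3 peak in replicate 1 only, of 4.34, 3.76, 4.74, 3.70 and 3.85. For these 6 genes the missing call came from the library with the fewest peaks. At NAC4, however, the FLAG-SNAP3 peak lay 89 bp outside the gene. It was apart from the site inside the gene that FLAG-SNAP1, FLAG-SNAP2 and FLAG-SNAP4 shared, where neither FLAG-SNAP3 replicate had a peak. NAC27, also called SIN1 and known as a salt-induced NAC gene of soybean roots, had no FLAG-SNAP3 peak in either replicate, and 4.16, 4.56, 5.13, 4.84, 4.40 and 4.33 in the other 6 libraries. NAC1 gave the same pattern, with 4.82, 4.86, 4.34, 4.61, 3.76 and 3.37. No test compared these 2 genes between TFs.

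Other combinations held few genes. WRKY31 and WRKY52 were targets of all TFs but FLAG-SNAP4, of which only replicate 1 had a peak, of 3.31 and 2.95. WRKY34 was the only member bound by FLAG-SNAP2, FLAG-SNAP3 and FLAG-SNAP4 without FLAG-SNAP1. It had no FLAG-SNAP1 peak, FLAG-SNAP2 peaks of 3.55 and 3.86, FLAG-SNAP3 peaks of 5.25 and 5.69, and FLAG-SNAP4 peaks of 2.81 and 2.75. The FLAG-SNAP3 values were the highest of the 6. The FLAG-SNAP2 peaks were at different sites, that of replicate 1 inside the gene with those of FLAG-SNAP3 and FLAG-SNAP4 (from 44038837 to 44039169 on chromosome 7), and that of replicate 2 outside it, 697 bp from the gene end (from 44035307 to 44035568). NAC3, NAC51, WRKY5 and WRKY25 were targets of FLAG-SNAP1 and FLAG-SNAP2 only, and NAC22, WRKY51 and WRKY57 of FLAG-SNAP2 and FLAG-SNAP4 only. WRKY27, a soybean WRKY known for a role in salt and drought tolerance, and WRKY6 were targets of FLAG-SNAP1 and FLAG-SNAP4.

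Among the members bound by a single TF, FLAG-SNAP1 had 8 (7.27% of members), FLAG-SNAP2 had 2 (1.82%), FLAG-SNAP3 had none and FLAG-SNAP4 had 3 (2.73%). Of other genes, 2.68%, 1.93%, 0.796% and 0.585% were targets of FLAG-SNAP1, FLAG-SNAP2, FLAG-SNAP3 or FLAG-SNAP4 alone, so FLAG-SNAP1 led there too. Those of FLAG-SNAP1 were GMNAC184, LOC100817074 (synonym NAC8), NAC14, NAC26, NAC177, WRKY14, WRKY36 and WRKY19. At GMNAC184 (4.86 and 4.58), NAC177 (4.57 and 3.91) and WRKY36 (4.48 and 4.54) the FLAG-SNAP1 libraries were the only 2 of 8 with a peak. All these peaks lay outside the gene, a median of 1906, 954 and 1514 bp from its end. Those of GMNAC184 and WRKY36 would thus not count with a distance of 1 kb. The other 5 genes also had a peak in 1 or more single replicates of other TFs, so a target of 1 TF here means that no other TF had both replicates. LOC100817074 had 4.84 and 5.79 for FLAG-SNAP1, and also 4.24 in FLAG-SNAP2 replicate 2 and 4.23 in FLAG-SNAP3 replicate 1. The targets of FLAG-SNAP4 alone were NAC175 (3.83 and 6.17), WRKY17 (3.62 and 3.44) and WRKY12 (2.65 and 3.47), and those of FLAG-SNAP2 alone were NAC021 (3.92 and 3.32) and WRKY55 (3.03 and 2.91). At WRKY17 and WRKY55 the peaks of the replicates lay at different sites, so no site of that TF was found in both. Over all members, replicate peaks overlapped at 40 of 40 targets of FLAG-SNAP1, 32 of 36 of FLAG-SNAP2 (not at NAC3, WRKY33, WRKY34 and WRKY55), 19 of 19 of FLAG-SNAP3 and 32 of 33 of FLAG-SNAP4 (not at WRKY17). The share was 95.6%, 93.7%, 95.9% and 91.5% for targets among other genes, and it was 16 of 16 for the members bound by all 4 TFs. This criterion was added after seeing the data.

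NAC11, with the synonym GmNAC181, is the gene of SNAP4 itself, and it had no peak in any of the 8 libraries. The genes of SNAP1, SNAP2 and SNAP3 could not be matched to the annotation by an identifier. WRKY6, a name that in Arabidopsis belongs to a senescence regulator, had 4.61 and 5.11 for FLAG-SNAP1, 3.36 in FLAG-SNAP2 replicate 2, no FLAG-SNAP3 peak, and 4.02 and 3.99 for FLAG-SNAP4. WRKY33, whose Arabidopsis namesake acts in defence against fungi, had 4.28, 4.19, 2.88, 3.11, 3.85, none, 3.00 and 3.65 in the order of libraries used above. WRKY22 had a peak in FLAG-SNAP3 replicate 2 only, of 3.82, and was a target of no TF. Soybean names follow the annotation and need not mark the closest relative of the Arabidopsis gene. WRKY6, WRKY22 and WRKY33 of the annotation lie on chromosomes 8, 2 and 17. The paper reports SNAP targets named GmWRKY6, GmWRKY22 and GmWRKY33, but their identifiers place them on other chromosomes. The genes of these names in the annotation are therefore not the ones the paper names. Whether the paper's genes are among the members under other names could not be checked, as the annotation used holds no matching identifiers. LOC100811301 (synonym GmNAC085), known as a senescence-promoting NAC gene, had a peak of 3.99 in FLAG-SNAP2 replicate 2 only, and NAC15 (synonym GmNAC065), known for the opposite effect on leaf senescence, had none. NAC6, linked in soybean to stress-induced cell death, had a single peak of 4.23 in FLAG-SNAP2 replicate 1. Of the 74 members with any peak, 19 had it in 1 library only, and the matching share of other genes is not given here.

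Peaks at members lay mostly inside the gene. Over the 8 libraries, 57.7 to 88.9% of the gene and peak pairs of NAC genes (median 71.0%) and 54.1 to 74.4% of those of WRKY genes (median 65.8%) had the midpoint inside the gene, against 39.0 to 53.8% for other genes (median 43.1%). Median gene length was 2236 bp for NAC and 2675 bp for WRKY genes, against 3354 bp for other genes, so members were the shorter genes. Another protein-coding gene reached into the window of 5 NAC genes (10.4%) and 15 WRKY genes (24.2%), against 38.8% of other genes. Pooled over libraries, 3.02% of WRKY pairs and 1.91% of NAC pairs lay from 500 to 750 bp outside the gene, against 6.40% for other genes. From 1000 bp outward lay 8 of the 157 NAC pairs (5.10%) and 2 of the 298 WRKY pairs (0.671%), against 18.3% of pairs of other genes. Outside genes, the median distance to the gene end was 268 bp for NAC and 234 bp for WRKY genes, against 573 bp for other genes (median of 8 libraries). No peak at a member was at a tRNA gene, among 9 to 26 NAC and 21 to 43 WRKY pairs in a library. For other genes 458 to 534 pairs in a library were at a tRNA gene, among 2948 to 7224. Moving all gene coordinates by 20 kb left 2.08 to 10.4% of NAC genes (median 4.17%) and 6.45 to 17.7% of WRKY genes (median 11.3%) with a peak.

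**Figure D4:**
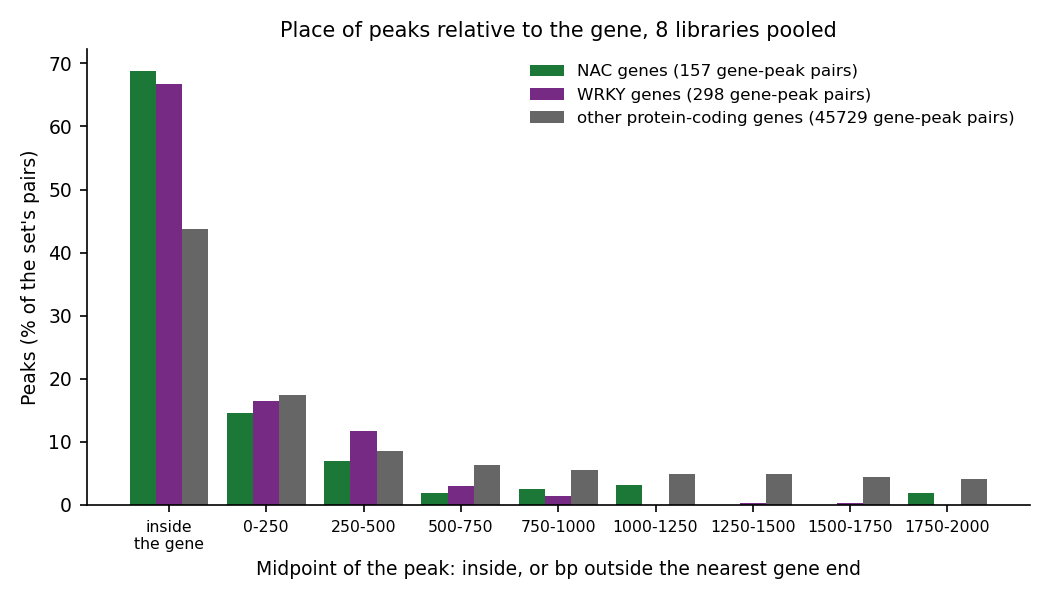
Place of peak midpoints relative to the gene (x axis: inside the gene, or distance outside the nearest gene end in bins of 250 bp) as a share of each set's gene and peak pairs (y axis, percent), with the 8 libraries pooled. Inside the gene lay 68.8% of the 157 NAC pairs and 66.8% of the 298 WRKY pairs, against 43.7% of the 45729 pairs of other genes, and the bars of both families drop off beyond 500 bp.

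Peaks at NAC genes were broad with FLAG-SNAP1, FLAG-SNAP2 and FLAG-SNAP4, and less so with FLAG-SNAP3. The median width of NAC peaks ran from 324 to 857 bp over the libraries (median 677 bp), and that of WRKY peaks from 334 to 480 bp (median 374 bp), against 274 to 373 bp for other genes (median 311 bp). In FLAG-SNAP3 replicates 1 and 2 the median width was 348 and 324 bp for NAC peaks. It was 383 and 366 bp for WRKY peaks there, and 274 and 296 bp for other genes. Among genes with a peak in all 8 libraries, peaks covered a median of 85.5% of the gene at the 5 NAC genes and 31.8% at the 11 WRKY genes, against 1.95% at the 1041 other genes. NAC2 was covered over 94.8% of its length in the median library, NAC19 over 87.2%, NAC018 over 85.5%, NAC022 over 82.6% and LOC100170751 over 74.2%. At least 50% of the gene was covered at all 5 of these NAC genes and at 3 of the 11 WRKY genes, against 15.9% of the other genes. Those WRKY genes were WRKY37 with 98.9%, WRKY50 with 87.3% and WRKY56 with 73.5% in the median library. WRKY49, WRKY16 and WRKY39 were at the other end with 11.0%, 13.2% and 15.1%. The cover varied between libraries, from 25.1 to 98.6% at NAC022 and from 12.1 to 94.6% at WRKY50. Taking all members with a peak in a library, 7.69 to 58.8% of NAC genes (median 45.9%) and 4.00 to 28.0% of WRKY genes (median 12.2%) were covered over at least 50% of their length, against 4.81 to 8.87% of other genes (median 5.78%). The lowest NAC values, 7.69% and 16.7%, were those of FLAG-SNAP3 replicates 1 and 2, against 5.25% and 5.36% of other genes. The widest peak at a member was the 2565 bp one at LOC100814504 in FLAG-SNAP4 replicate 1, followed by 2529 and 2478 bp at NAC018 in the FLAG-SNAP1 libraries.

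**Figure D5:**
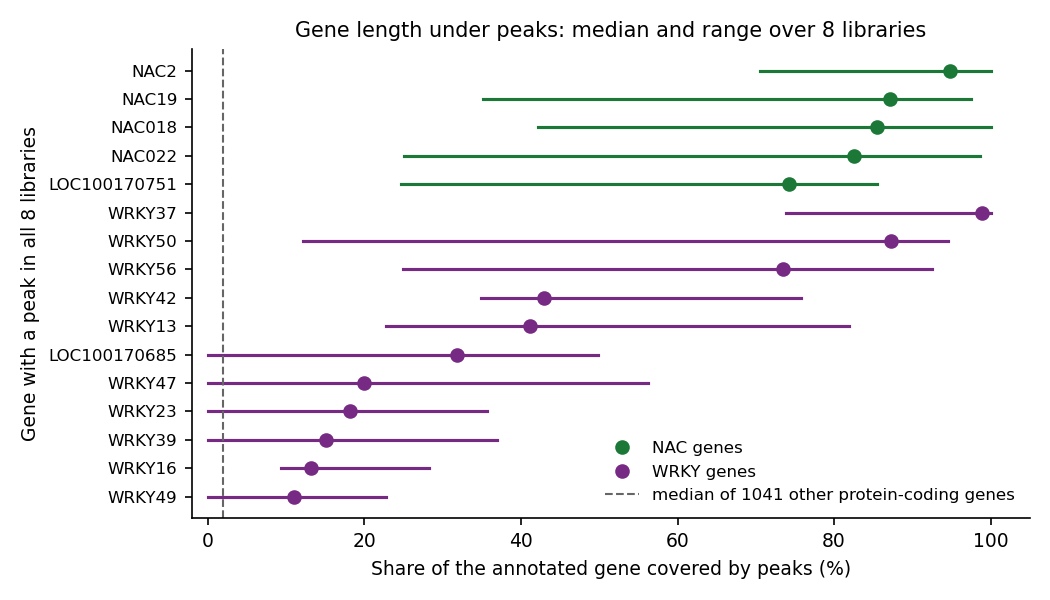
Share of the annotated gene covered by peaks (x axis, percent) for the 16 NAC and WRKY genes with a peak in all 8 libraries (y axis); points are medians and lines run from the lowest to the highest of the 8 libraries, and the dashed line is the median of the 1041 other genes with a peak in all 8 libraries. The 5 NAC genes lie between 74.2% and 94.8%, while the 11 WRKY genes run from 11.0% to 98.9%.

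Some sites had their summits close together across libraries and others did not. Intervals in this paragraph are those of the FLAG-SNAP1 replicate 1 peak, and summit spreads are over the peaks of all libraries. At WRKY16 the 8 libraries gave 1 peak each, all inside the gene, with summits within 123 bp of each other, and in FLAG-SNAP1 replicate 1 the peak ran from 38593241 to 38593857 on chromosome 12 (Wm82 a4.v1). At WRKY39 the site outside the gene, from 43830400 to 43830876 on chromosome 2, lay a median of 382 bp from the gene end and had summits within 349 bp in 8 libraries. At NAC018, by contrast, the peak from 12893069 to 12895546 on chromosome 6 was longer than the gene, and the summits of 15 peaks were spread over 1593 bp. The peak at NAC2, from 9211958 to 9214146 on chromosome 6, and that at WRKY37, from 5952470 to 5954423 on the same chromosome, were likewise longer than their genes in FLAG-SNAP1 replicate 1, with summits spread over 1660 and 1313 bp. This length did not hold in every library. In FLAG-SNAP3 replicates 1 and 2 the widest peaks at NAC2, a gene of 1928 bp, were 929 and 871 bp. Joined over libraries, the peaks at members formed 113 sites at 74 genes, 35 at NAC and 78 at WRKY genes. Of these, 16 were found in all 8 libraries and 47 in 1 library only. WRKY42 had 2 sites in all 8 libraries, from 14931836 to 14932776 and from 14933342 to 14934643 on chromosome 15, the first inside the gene and the second at its end, with a mean fold enrichment of 3.54 ± 0.504 and 4.15 ± 0.478 (SD over their 9 and 11 peaks). WRKY23 had a peak in every library but at different sites, of which the most frequent, from 443749 to 443983 on chromosome 9, was outside the gene and in 7 libraries. In all, 6 NAC and 23 WRKY genes had at least 2 sites. No count of sites is given for other genes, so these counts cannot be read as a trait of members.

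The peaks at members were low in height and higher in rank by q-value. Within a library, peaks at NAC genes had a median fold enrichment at percentile 21.2 to 46.7 of all peaks (median 35.8) and those at WRKY genes at percentile 16.1 to 27.7 (median 20.4), against 43.7 to 47.8 for other genes (median 45.6). By −log10 q-value the same peaks stood at percentile 43.5 to 84.8 for NAC genes (median 72.8) and 40.0 to 69.4 for WRKY genes (median 57.3), against 47.8 to 50.2 for other genes (median 49.8). Over the 8 libraries there were 319 cases of a member with a peak, 119 NAC and 200 WRKY. None was among the 100 highest peaks of its library, against 0.858% of the 40549 cases of other genes, too small a share for its absence among 319 to be read. Among the 1000 highest were 5 cases (1.57%), 4 NAC and 1 WRKY, against 13.6% for other genes: NAC5 in FLAG-SNAP2 replicate 1, NAC19 and WRKY5 in FLAG-SNAP2 replicate 2, LOC100170714 in FLAG-SNAP3 replicate 1 and NAC175 in FLAG-SNAP4 replicate 2. The best rank was 689, of NAC175 with 6.17, and NAC5 with 6.20 had no peak in any other library. Even among genes with a peak in all 8 libraries, the median over genes of the mean percentile by height was 58.5 for NAC and 26.9 for WRKY genes, against 78.7 for other genes.

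As a group, named genes of other TF families lay between WRKY genes and other genes. Matched by name in the same way, 220 genes of the MYB (81), bZIP (89), ERF (11), DOF (2) and HSF (37) families were targets of FLAG-SNAP1 to FLAG-SNAP4 in 25.9%, 19.5%, 12.3% and 15.5% of cases. The share was below that of WRKY genes for each TF, and below that of NAC genes for all but FLAG-SNAP3, where NAC genes stood at 10.4%. The HSF genes, which code for heat shock factors, had 32.4%, 32.4%, 18.9% and 21.6%. This was above NAC genes for FLAG-SNAP2 and FLAG-SNAP3 and below WRKY genes for each TF. Of HSF genes, 6 of 37 (16.2%) were targets of all 4 TFs, above the 10.4% of NAC and below the 17.7% of WRKY genes. The bZIP genes had 28.1%, 20.2%, 11.2% and 13.5%, and the MYB genes 21.0%, 13.6%, 7.41% and 12.3%. Over the 5 families together, 16 of 220 genes (7.27%) were targets of all 4 TFs, against 16 of 110 members (14.5%). The 11 ERF genes, a family of ethylene response factors, had 3, 2, 4 and 4 targets, and the 4 of 11 (36.4%) for FLAG-SNAP3 and FLAG-SNAP4 were above both member families. Neither DOF gene was a target. No difference between these lists was tested.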

How the data were processed

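The labels' processing notes name Trim Galore 0.6.6, Bowtie2 2.3.4.3, SAMtools, deepTools 3.5.1 and MACS2 2.2.7.1. Per the methods, reads were aligned to Wm82 a4.v1, properly paired reads above MAPQ 30 were kept, and peaks were called in each library separately at a q-value of 0.05; a control library and duplicate removal were not given in the sources used here. The authors deposited for each peak its position, its summit, the fold enrichment there (a linear ratio), −log10 values of p and q, and a whole-number score that follows the −log10 q-value. The score and p-value columns were not used.

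A peak counted for every gene whose interval, extended by 2 kb, held its midpoint. Gene names came from RefSeq's Glycine_max_v4.0, of which no gene coordinates are printed. Shares, positions, percentiles and sites were computed with Python 3.11.15, numpy 2.4.6 and pandas 2.3.3, and the assignment was tested on simulated data. Named were members with a peak in all 8 libraries, the 10 of each family with peaks in the most libraries, targets of 1 TF, NAC11, and WRKY6, WRKY22 and WRKY33; others were chosen after their values were seen. Members and lists were chosen with earlier results of these data known. Promoter motifs and upstream position were planned, but no sequence or strand was used here. Alternatives changed the window, the peak threshold, the assignment and the background.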

Additional observations from a re-analysis of the deposited data

How the results depend on the processing

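Each of the 8 ratios of target shares (NAC and WRKY genes over other genes, 4 TFs) was recomputed under 18 settings. Of 144 values 142 were above 1, from 1.23 to 6.63 for NAC and from 0.494 to 8.55 for WRKY genes. The 2 values below 1 came with the 3628 peaks of highest fold enrichment per library, WRKY genes at 0.494 for FLAG-SNAP1 and 0.538 for FLAG-SNAP2, on 1 target each. This setting gave 3.82 and 2.25 for WRKY genes with FLAG-SNAP3 and FLAG-SNAP4 and 1.28, 2.08, 1.23 and 5.81 for NAC genes with FLAG-SNAP1 to FLAG-SNAP4, the order kept below. Ranking by −log10 q-value instead, chosen after seeing the data, gave 4.86, 5.85, 2.27 and 5.66 for NAC and 6.27, 4.98, 6.15 and 6.82 for WRKY genes. A distance of 1 kb gave 4.34, 4.64, 2.75 and 5.61 for NAC and 4.93, 5.65, 5.97 and 7.60 for WRKY genes, and 500 bp gave 4.89, 5.08, 3.18 and 6.63 and 5.68, 6.05, 6.89 and 8.55. A q-value of 0.0001 gave 5.67, 5.01, 2.94 and 5.75 for NAC genes and 5.56 and 4.58 for WRKY genes with FLAG-SNAP1 and FLAG-SNAP2. Assigning a peak to the nearest gene only gave 4.57, 4.26 and 5.29 for NAC genes with FLAG-SNAP1, FLAG-SNAP2 and FLAG-SNAP4, and 4.78, 5.18, 5.63 and 7.17 for WRKY genes. Asking for a peak in either replicate gave 2.42, 2.35 and 2.66 for NAC genes with the same 3 TFs, and 2.91, 2.82, 3.91 and 3.63 for WRKY genes. Without peaks at tRNA genes the ratios were 4.47, 4.29, 2.84 and 5.45 for NAC and 4.68, 5.22, 6.16 and 7.39 for WRKY genes. Against other genes with a symbol they were 2.47, 2.36, 1.45 and 2.69 and 2.59, 2.87, 3.15 and 3.64. Genes with no other gene in the window (43 NAC, 47 WRKY) gave 3.47, 2.83, 1.44 and 3.25 for NAC genes and 3.85 and 4.40 for WRKY genes with FLAG-SNAP1 and FLAG-SNAP2. Peaks per Mb of window gave 3.71 and 3.46 for NAC genes with FLAG-SNAP1 and FLAG-SNAP3, and 5.16, 4.66, 6.23 and 7.11 for WRKY genes. Smaller moves were seen for NAC genes with FLAG-SNAP1 and WRKY genes with FLAG-SNAP2, 4.02 and 4.34 with any overlap, 4.02 and 4.38 with a q-value of 0.01, and 3.61 and 4.37 with members taken by symbol only. Asking for overlapping peaks in both replicates, also chosen after seeing the data, gave 4.12 for NAC genes with FLAG-SNAP1, and 4.31 and 4.15 for WRKY genes with FLAG-SNAP1 and FLAG-SNAP2. Of the 144 values, 102 moved by at least the SD between replicates; the cause was not tested.

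With a single replicate in place of both, the ratio ran from 2.92 to 2.97, 2.56 to 3.01, 2.13 to 2.64 and 2.90 to 3.56 for NAC genes, and from 3.19 to 3.45, 3.29 to 3.38, 3.93 to 4.67 and 4.01 to 4.77 for WRKY genes. No paired analysis was possible because no groups of samples were compared: each ratio sets gene lists side by side within the same libraries and comes from no test.

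Peak lists carry no read counts, so a gene without a peak cannot be told apart from a bound gene below the detection limit of its library. Fold enrichment was not compared between TFs by a test. Without an input or untagged library, signal that does not depend on the tagged TF cannot be told apart from binding. The list holds named genes only, and other genes with a symbol were targets of FLAG-SNAP1 in 14.3% of cases, against 8.99% of all other genes. A peak within 2 kb does not show which gene it acts on.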

Other observations

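Of the 110 genes, 6 pairs of the same family lay within 100 kb of each other, with 1 to 7 protein-coding genes between them. WRKY6 was a target of FLAG-SNAP1 and FLAG-SNAP4 with peaks in 5 libraries, whereas WRKY40, a soybean gene linked to defence, on chromosome 8 with 6 genes between them, had none. WRKY10 had peaks in 7 libraries and was a target of FLAG-SNAP1, FLAG-SNAP2 and FLAG-SNAP4, and its neighbour WRKY64 on chromosome 18 had none. LOC100817074 had peaks in 4 libraries and NAC23, on chromosome 16 with 3 genes between them, in 1. WRKY51 was a target of FLAG-SNAP2 and FLAG-SNAP4, while WRKY41, on chromosome 3 with 7 genes between them, had a peak in 2 libraries and was a target of none. In the remaining pairs, WRKY45 with WRKY21 and WRKY30 with WRKY63, the first gene had no peak and the second a peak in 1 library. No pair held 2 targets, which in 6 pairs is too few to read as a pattern. The pairs were chosen by distance alone, and no test was run on them.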
